A study of Mus musculus with 28 samples.

Results

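Of the 53801 features in the expression table, 9 genes were examined as the granzymes and cytotoxic granule genes: Gzma, Gzmb, Gzmc, Gzmk, Prf1, Nkg7, Ctsw, Srgn and Serpinb9. They were chosen by symbol, and each symbol matched 1 row. CT2A, a mouse line used as a model of GBM, was grown in the brain, and the RNA of Treg cells was sequenced in bulk by Smart-Seq2, a method for full-length cDNA from few cells. Cells of the spleen and of the tumor were sorted as TCR+ CD4+ cells with high CD25 and low CD127, with CD8+ cells gated out. The control mice received the isotype antibody IgG2a, and the treated mice received αPD1, which blocks PD1, together with αGITR, an agonist of the co-stimulatory receptor GITR. Dosing began at a tumor size of 2 mm3 and comprised 4 doses of 250 µg at intervals of 3 days, with tissue taken 2 days after the last dose. All mice carried a tumor, so no tumor-free mouse and no mouse given a single antibody was compared. The methods name C57BL/6 as the wild-type strain and mice of both sexes for the study in general, and the sex and age of these animals were not given in the sources used here. Libraries used for spleen numbered 7 after IgG2a and 8 after αPD1 + αGITR, and those for GBM numbered 5 and 7 in the same order. A further library of treated spleen, of 9 described, was not used because no column carried its name. The samples came from different mice by the series description, but the libraries carry numbers that several of them share, and 4 of the splenic IgG2a libraries have the number 79. A legend of the study counts fewer animals than there are spleen libraries, so some of these may share a mouse, and p-values taken over them would then be too small. What the numbers stand for was not given in the sources used here.

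Cytotoxic granules are secretory lysosomes that killer lymphocytes empty onto a target cell. Perforin, encoded by Prf1, opens a path through the target membrane for the granzymes, serine proteases that cleave proteins inside the target, and granzyme B starts apoptosis there by cleaving caspases and Bid. Inside the granule the proteases are bound to serglycin, the proteoglycan core protein encoded by Srgn, and Nkg7 encodes a membrane protein of the granule that takes part in its release. Ctsw encodes cathepsin W, a cysteine protease of NK and cytotoxic T cells, and Serpinb9 encodes a cytosolic inhibitor that protects a cell from its own granzyme B. Activated Treg cells are known to make granzyme B in tumors and to use it against effector cells.

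Gzmb lies on chromosome 14 of GRCm38 from 56258838 to 56262260 on the minus strand, at the end of a cluster in which 7 granzyme genes lie within 144.6 kb. Gzmc, its nearest granzyme neighbor, runs from 56231441 to 56234656 on the same strand. Gzma and Gzmk lie on chromosome 13, from 113093825 to 113100981 and from 113171608 to 113225908, and Serpinb9 lies on the same chromosome from 33003250 to 33017957. Prf1 and Srgn lie on chromosome 10, from 61297833 to 61304680 and from 62493833 to 62527451, Nkg7 on chromosome 7 from 43437073 to 43438249, and Ctsw on chromosome 19 from 5465043 to 5468507. All 9 are annotated as protein-coding.

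The sequences before the start of Gzmb, of its neighbor Gzmc and of Nkg7 are shown because Gzmb and Nkg7 differed most between the tissues among the genes tested here while Gzmc was near 0 in nearly all libraries. Each is the 250 bases upstream of the start given by RefSeq for GRCm38.p6, read 5′ to 3′ along the gene: chr14:56262335-56262584 on the minus strand for Gzmb, chr14:56234658-56234907 on the minus strand for Gzmc and chr7:43436888-43437137 on the plus strand for Nkg7. Capitals mark matches, on either strand, to 5 short motifs: TGTGGT for RUNX factors, TGANTCA for AP-1, TGACGTCA for CRE-binding factors, AGGTGT as a half-site of T-box factors and TTCNNNGAA for STAT factors.
Gzmb: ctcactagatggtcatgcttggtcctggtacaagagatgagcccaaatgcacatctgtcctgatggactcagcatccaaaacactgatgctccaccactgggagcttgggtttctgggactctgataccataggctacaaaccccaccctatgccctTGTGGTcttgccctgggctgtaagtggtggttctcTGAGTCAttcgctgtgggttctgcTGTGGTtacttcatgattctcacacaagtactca
Gzmc: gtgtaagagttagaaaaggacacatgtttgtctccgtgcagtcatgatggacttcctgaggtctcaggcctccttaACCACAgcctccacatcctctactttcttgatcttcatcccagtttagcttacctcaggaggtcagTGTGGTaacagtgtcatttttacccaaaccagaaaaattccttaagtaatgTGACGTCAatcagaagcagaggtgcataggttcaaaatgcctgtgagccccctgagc
Nkg7: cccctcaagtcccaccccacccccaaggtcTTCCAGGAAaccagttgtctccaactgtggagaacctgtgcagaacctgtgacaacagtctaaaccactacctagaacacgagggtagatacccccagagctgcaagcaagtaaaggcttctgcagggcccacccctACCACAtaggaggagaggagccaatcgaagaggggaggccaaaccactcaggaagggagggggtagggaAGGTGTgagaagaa

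Distances are counted from the RefSeq start, which for Gzmb lies upstream of the gene end given above from GENCODE. For Nkg7 the RefSeq start lies inside the GENCODE gene, and so does the T-box half-site of its window. The windows of Gzmk and Serpinb9, and that of Srgn with the RUNX match, also lie inside their GENCODE genes. The Gzmb window held a RUNX match beginning 93 bases and another beginning 34 bases before the start, with an AP-1 match 58 bases before it. The Gzmc window held RUNX matches at 174 and 108 bases and a CRE match at 57 bases, and that of Nkg7 a STAT match in its distal part, a RUNX match at 83 and a T-box half-site at 14 bases before the start. No marked match overlapped another. RefSeq windows were matched for 8 of the 9 genes, with 2 windows for Srgn. The RUNX letters were in 6 of these 9 windows, against 14% of all 32851 windows of that length. The T-box half-site was in 4 windows, those of Gzma, Gzmk, Nkg7 and Prf1, against 11.8% of all windows. AP-1, CRE and STAT letters were in 1 window each, against 6.75%, 1.55% and 7.02% of all windows. These matches describe the letters only, and the Gzmc window held as many matches as that of Gzmb, 3 each.

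Values are TPM, a transcript abundance scaled to the same total in every library, which the authors calculated per gene length with RSEM, so levels of different genes can be set beside each other. The read depth was not given in the sources used here, and an exact 0 can stand for a transcript missed in a library of few cells. Between 7702 and 17460 genes were above 1 TPM in a library, and the 10 most abundant features took 31.9% to 78.3% of its TPM. Foxp3, the defining factor of Treg cells, was detected in all 27 libraries at 21.5 to 440 TPM. The summed level of Cd8a and Cd8b1 was 0.52 to 36.6 TPM over all libraries. Of the 9 genes listed as markers of NK and innate lymphoid cells, Ncr1, Klrb1c, Klra4, Klra7, Klra8, Klre1 and Klri2 stayed at or below 5.27 TPM in every GBM library. The other markers on that list, Fcer1g and Tyrobp, which macrophages also express, reached 1100 and 561 TPM in the GBM IgG2a library tumor_79_a, where the 11 macrophage and microglia markers summed to 4339 TPM. That sum was 1798 TPM in the treated GBM library tumor_73_a, and the group medians were 122 TPM after IgG2a and 105 TPM after αPD1 + αGITR. The 7 mast cell and basophil markers summed to at most 2.27 TPM in GBM. The 3 plasmacytoid dendritic cell markers had median sums of 130 and 141 TPM in GBM after IgG2a and αPD1 + αGITR. In spleen these were 24.9 and 18.0 TPM in the same order. Irf7 averaged 119 and 153 TPM in GBM, while Siglech and Tcf4 reached at most 49.6 and 50.6 TPM. The 5 B cell markers had median sums of 123 and 250 TPM in GBM and 141 and 189 TPM in spleen. Those of the 7 brain and tumor markers were 52.0 and 22.7 against 7.12 and 15.4 TPM. Il7r, which encodes CD127, was 277 TPM in the GBM IgG2a library tumor_369_a and at most 38.4 TPM in the other GBM libraries. The part of these markers in the results was not tested, except where a value without the library is given.

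**Figure D1:**
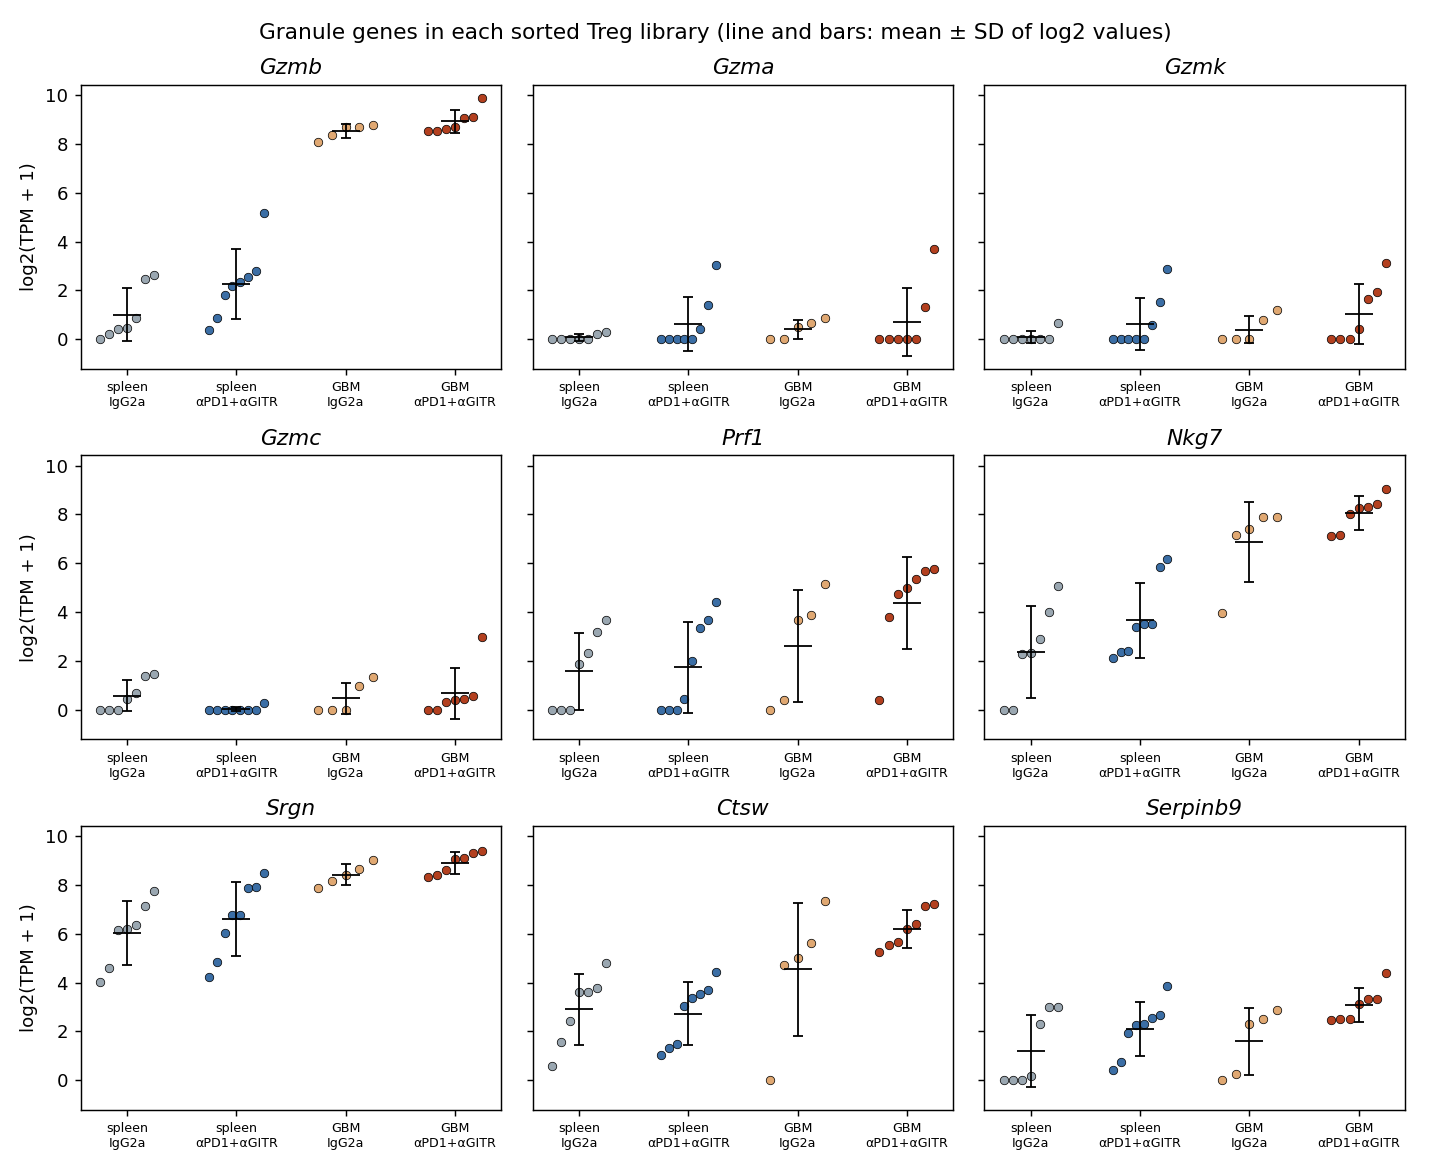
Levels of the 9 genes on a log2(TPM + 1) scale, 1 point per library, in splenic and GBM Treg cells after IgG2a or αPD1 + αGITR. The line and bars give the mean and SD of the log2 values. The 12 GBM libraries all lie above the 15 splenic ones for Gzmb, while Gzma, Gzmk and Gzmc have medians of at most 0.43 TPM in each group, with single libraries up to 11.9 TPM.

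Of the 9 genes, 5 had a mean above 10 TPM in a group of the tissue comparisons and were tested across all genes: Gzmb, Prf1, Nkg7, Ctsw and Srgn. Gzmb, Prf1 and Ctsw, and after IgG2a also Nkg7, passed this filter through their GBM level alone, so that the number passing is no support for a difference. After IgG2a, Gzmb and Nkg7 were higher in GBM than in splenic Treg cells at an adjusted p under 0.05, as were 0.488% of the 7380 genes tested. After αPD1 + αGITR, Gzmb, Nkg7, Ctsw, Srgn and Prf1 were higher in GBM, against 15.8% of the 7506 genes tested. No gene of the 9 passed unadjusted p under 0.05 and a 2-fold change between treatments in limma, neither of the 5 tested in GBM nor of the 2 tested in spleen, Nkg7 and Srgn, and none passed unadjusted p alone. In GBM 16.8% of the 7848 genes tested were higher and 4.87% lower after αPD1 + αGITR by this threshold, and in spleen 1.49% and 1.04% of 6634. The exact permutation test of single genes, two-sided and exhaustive, gave p under 0.05 between treatments for Serpinb9 in GBM and Gzmc in spleen. It was run 54 times, for 9 genes and each pair of the 4 groups, and its p-values are unadjusted.

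**Figure D2:**
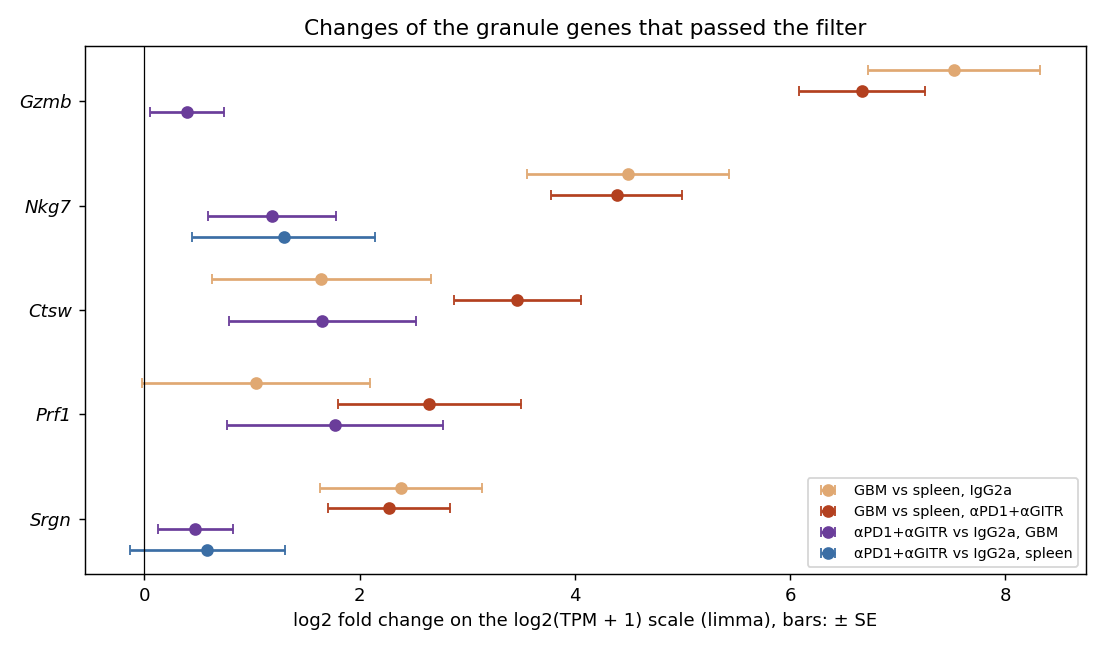
Log2 fold changes of the 5 genes tested, with their SE, for the tissue and the treatment comparisons. The values of Gzmb are 7.52 and 6.67 between tissues and 0.40 between treatments in GBM; Gzmb, Ctsw and Prf1 were not tested in spleen because they were under the filter there.

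Gzmb was among the most abundant transcripts of GBM Treg cells in both arms and nearly absent from splenic ones. In the 5 GBM libraries after IgG2a it was 271, 328, 417, 417 and 437 TPM. After αPD1 + αGITR it ranged in GBM from 370 to 949 TPM with a median of 415 TPM. In spleen it ranged from 0 to 5.26 TPM with a median of 0.36 TPM after IgG2a, and from 0.29 to 35.3 TPM with a median of 3.79 TPM after αPD1 + αGITR. The lowest GBM library was thus well above the highest splenic one in each arm, and the gene ranked between 43 and 238 among all features in the GBM libraries. The log2 difference between tissues was 7.52 (SE 0.80, adjusted p = 4.73e-07, limma) after IgG2a and 6.67 (SE 0.58, adjusted p = 1.84e-07, limma) after αPD1 + αGITR. Every GBM library above every splenic one was found for 1.25% of genes tested after IgG2a and 2.96% after αPD1 + αGITR. The adjusted p of Gzmb stayed at or below 0.00203 in all alternatives run for the tissue comparisons that tested it, with log2 differences from 5.03 to 8.97.

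In GBM the groups overlapped in Gzmb between treatments, and the difference did not pass the test. The means were 374 ± 71.5 TPM (SD, n = 5) after IgG2a and 512 ± 206 TPM (SD, n = 7) after αPD1 + αGITR, and 3 of 7 treated libraries lay above all 5 controls. The log2 difference was 0.40 (SE 0.35, unadjusted p = 0.265, adjusted p = 0.478, limma), below the median of 0.62 over all genes tested in GBM, and it was -0.30 when the libraries were rescaled by TMM-type factors, which brought that median to 0.05. Without the treated library tumor_73_b, the highest, it was 0.23 (unadjusted p = 0.483, limma). In spleen the mean was 1.64 ± 2.26 TPM (SD, n = 7) after IgG2a and 7.15 ± 11.5 TPM (SD, n = 8) after αPD1 + αGITR, with an exact permutation p of 0.0791. The groups overlapped there, and 2 of 8 treated spleens exceeded all controls. A test of whether the treatment difference itself was unlike in the 2 tissues, the interaction term, gave -0.86 (SE 0.89, unadjusted p = 0.344, adjusted p = 0.735, limma), and none of the 5 genes tested passed it, against 12.2% of 8687 genes.

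In order of mean level Gzmb was lowest in IgG2a spleen, followed by treated spleen, IgG2a GBM and treated GBM. The step from treated spleen to IgG2a GBM spans a difference in both tissue and treatment. It passed the exact permutation test (exact permutation p = 0.000777, the smallest these group sizes allow). The neighbors within each tissue overlapped and did not pass that test.

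The other granzymes contributed little. Gzmb made up 99.0% to 100% of the summed TPM of 10 granzyme genes in the IgG2a GBM libraries and 96.9% to 99.5% in the treated ones. Gzma, a protease that cleaves after basic residues, was 0, 0, 0.43, 0.59 and 0.80 TPM in the IgG2a GBM libraries. In treated GBM it was at 0 in 5 of 7 libraries and highest at 11.9 TPM, in library tumor_73_a, which also carried the high macrophage marker sum. In spleen it was at 0 in 5 of 7 libraries after IgG2a and in 5 of 8 after αPD1 + αGITR, with the highest value of 7.27 TPM. No pair of groups differed in Gzma by the exact permutation test, with p from 0.0808 to 0.856.

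Gzmk, a granzyme typical of memory-like T cells, was 0, 0, 0, 0.71 and 1.30 TPM in the IgG2a GBM libraries. It reached 7.72 TPM in treated GBM and 6.40 TPM in treated spleen, where 3 of 7 and 5 of 8 libraries were at 0. Its exact permutation p ranged from 0.119 to 0.750 over the pairs of groups.

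Gzmc, which in mice is carried by the same cluster as Gzmb, stayed at or below 1.75 TPM in all libraries but 1. It was 0, 0, 0, 0.94 and 1.56 TPM in the IgG2a GBM libraries, and its highest value, 6.98 TPM, was in the treated GBM library tumor_73_b, which also had the highest Gzmb. Among treated spleens 7 of 8 libraries were at 0 and the other had 0.20 TPM. This group was lower than the IgG2a spleens (0.61 ± 0.76 TPM, SD, n = 7; exact permutation p = 0.0256) and than treated GBM (1.19 ± 2.56 TPM, SD, n = 7; exact permutation p = 0.00699), at levels where a transcript is easily missed.

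Among granzymes outside the 9 genes, 6 were also looked up, Gzmd, Gzme, Gzmf, Gzmg, Gzmm and Gzmn, and none reached the filter in any group. Gzmf and Gzmn were at 0 in all libraries given IgG2a. The highest level was that of Gzmm, 7.25 TPM in a treated spleen and 5.81 TPM in a treated GBM library.

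Prf1 was found at far lower levels than Gzmb in GBM, though not in spleen, and varied widely between libraries of the same group. In GBM after IgG2a it was 0, 0.32, 11.6, 13.6 and 34.3 TPM, and after αPD1 + αGITR it ranged from 0.30 to 53.3 TPM with a median of 30.8 TPM. In spleen it ranged from 0 to 11.6 TPM with a median of 2.69 TPM after IgG2a and from 0 to 20.3 TPM with a median of 1.68 TPM after αPD1 + αGITR. All 4 groups overlapped, and libraries at or near 0 occurred in each.

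Treated GBM exceeded treated spleen in Prf1 by a log2 difference of 2.65 (SE 0.85, adjusted p = 0.0370, limma), with 5 of 7 GBM libraries above every spleen. That call was lost in 16 of 25 alternatives, among them quantile normalization (1.72, adjusted p = 0.189), TMM-type factors (1.95, adjusted p = 0.196) and the omission of any of 7 single libraries. After IgG2a the tissue difference was 1.04 (SE 1.06, adjusted p = 0.717, limma), and 2.64 (SE 1.05, adjusted p = 0.494, limma) without the GBM libraries tumor_369_a and tumor_79_a, in which Prf1 was 0.32 and 0 TPM. Between treatments in GBM it was 1.77 (SE 1.00, unadjusted p = 0.0917, adjusted p = 0.290, limma), and without the same libraries it fell to 0.16 (unadjusted p = 0.860, limma). It passed unadjusted p under 0.05 and 2-fold without tumor_78_a (2.40, unadjusted p = 0.0302, limma) or without the treated library tumor_72_a (2.44, unadjusted p = 0.0110, limma).

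Nkg7 was also found at high levels in GBM. Its values after IgG2a were 14.6, 140, 171, 235 and 236 TPM, and after αPD1 + αGITR 138 to 531 TPM with a median of 304 TPM. In spleen the range was 0 to 33.0 TPM with a median of 4.05 TPM after IgG2a, and 3.39 to 70.4 TPM with a median of 9.85 TPM after αPD1 + αGITR. The GBM library tumor_369_a lay within the splenic range, and the other 11 lay above all 15 spleens.

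The log2 difference of Nkg7 between GBM and spleen was 4.49 (SE 0.94, adjusted p = 0.0145, limma) after IgG2a and 4.39 (SE 0.61, adjusted p = 0.000117, limma) after αPD1 + αGITR. The first call was lost, at adjusted p of 0.0544, 0.0501 and 0.0546 and differences of 4.24 to 4.35, without the GBM IgG2a library tumor_76_a, tumor_77_a or tumor_79_a, and kept without both tumor_369_a and tumor_79_a (5.12, adjusted p = 0.0347). It was also lost with no filter on low values (4.49, adjusted p = 0.237, limma), with a pseudocount of 0.1 (5.55, adjusted p = 0.107, limma) and with scaling on T cell genes (3.21, adjusted p = 0.105, limma), which moved the median over all genes from 0.48 to -0.81. Over the alternatives other than a block for the label number its adjusted p ranged from 0.000263 to 0.237. With that block the call was lost as well (adjusted p = 0.248, limma). Between treatments the difference in GBM was 1.19 (SE 0.59, unadjusted p = 0.0589, adjusted p = 0.240, limma), with 5 of 7 treated libraries above all controls. It passed the threshold of unadjusted p under 0.05 and 2-fold when any of the libraries tumor_76_a, tumor_79_a, tumor_73_a or tumor_73_b was left out, and was 0.56 (unadjusted p = 0.174, limma) without tumor_369_a and tumor_79_a. In spleen the difference was 1.29 (SE 0.85, unadjusted p = 0.140, limma).

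Srgn, the granule matrix gene that most blood cells express, was the most abundant of the 9 genes in spleen. Its GBM values after IgG2a were 235, 283, 334, 400 and 519 TPM, and after αPD1 + αGITR 318 to 680 TPM with a median of 532 TPM. The splenic range was 15.2 to 215 TPM with a median of 73.2 TPM after IgG2a and 17.7 to 360 TPM with a median of 109 TPM after αPD1 + αGITR. All 5 GBM libraries exceeded all 7 spleens after IgG2a, as in 1.25% of genes tested, while after αPD1 + αGITR 5 of 7 exceeded all 8 spleens.

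The tissue difference of Srgn was 2.39 (SE 0.75, adjusted p = 0.174, limma) after IgG2a, called only with library weights (1.91, adjusted p = 0.0213, limma), and 2.27 (SE 0.57, adjusted p = 0.0119, limma) after αPD1 + αGITR. The call after αPD1 + αGITR was lost with no filter and with scaling on T cell genes, at adjusted p up to 0.0924 (limma). Srgn followed the level of T cell genes of a library: its Pearson r with the mean log2(TPM + 1) of Cd3e, Cd3g, Trac and Cd4 was 0.96 over the 27 libraries, and 0.96 for deviations from group means. Other genes followed that level too, with r of 0.80 for Ctsw, 0.76 for Nkg7, 0.70 for Gzmb and 0.64 for Serpinb9. For deviations these were 0.66, 0.54, 0.45 and 0.59, and Prf1 had 0.29 and -0.07. That T cell level was 4.93 to 8.30 in spleen and 7.48 to 8.82 in GBM, and these libraries share their scaling to a fixed total. When it was taken off each library, an alternative added after the values had been seen, every tissue difference of the treated arm fell by the same amount, that of Srgn from 2.27 to 0.81 and the median over all genes tested from 0.95 to -0.51, so the place of Srgn relative to the other genes was kept. In bulk libraries fewer cells of a type and less RNA per cell cannot be told apart. The exact permutation p of Srgn between treatments was 0.0922 in GBM and 0.434 in spleen.

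**Figure D3:**
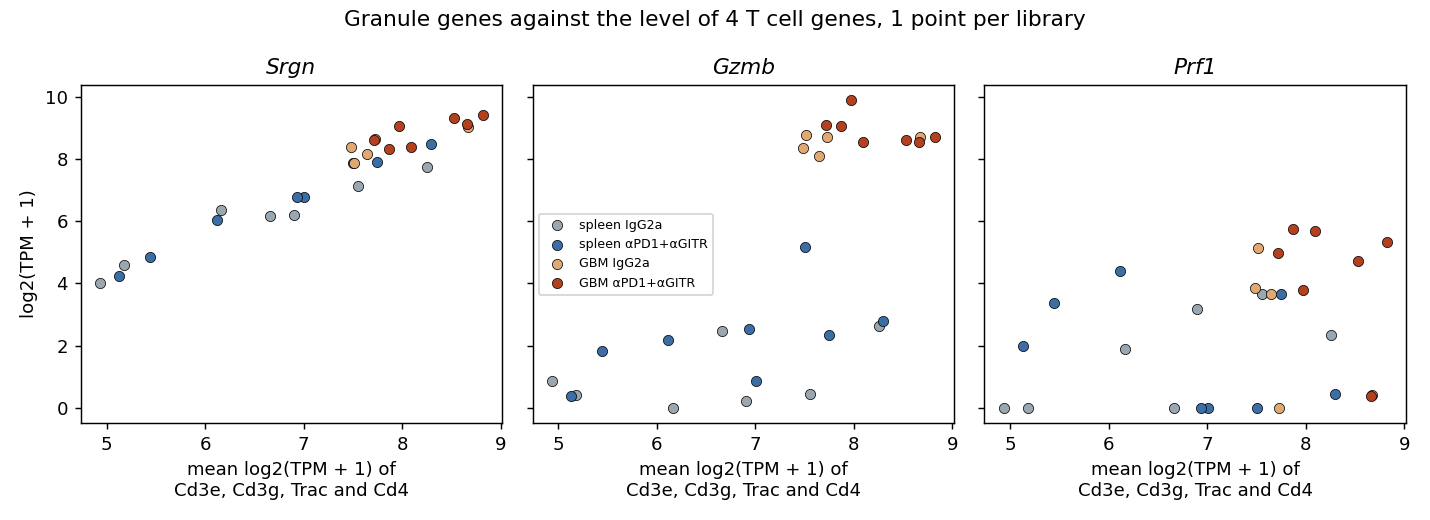
Srgn, Gzmb and Prf1 against the mean log2(TPM + 1) of Cd3e, Cd3g, Trac and Cd4, 1 point per library. Srgn follows the T cell genes in both tissues (r = 0.96 over 27 libraries), Gzmb (r = 0.70) separates GBM from spleen where the T cell levels overlap, and Prf1 shows libraries near 0 over the whole range (r = 0.29).

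Ctsw was intermediate in level. In the IgG2a GBM libraries it was 0, 25.5, 31.1, 48.8 and 161 TPM, with 0 in library tumor_79_a and the highest value in library tumor_369_a. After αPD1 + αGITR it ranged in GBM from 37.0 to 147 TPM with a median of 72.1 TPM. In spleen it ranged from 0.48 to 27.0 TPM with a median of 11.1 TPM after IgG2a and from 1.05 to 20.7 TPM with a median of 8.18 TPM after αPD1 + αGITR. Every treated GBM library was above every treated spleen, as in 2.96% of genes tested, and after IgG2a 3 of 5 were above every spleen.

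For Ctsw the tissue difference after αPD1 + αGITR was 3.47 (SE 0.59, adjusted p = 0.000749, limma) and remained past the threshold in all 25 alternatives that tested it. After IgG2a it was 1.64 (SE 1.02, adjusted p = 0.603, limma), and it rested on single GBM libraries, at 2.78 without tumor_79_a and 0.94 without tumor_369_a. The interaction term of 1.82 (SE 1.17, unadjusted p = 0.129, adjusted p = 0.548, limma) did not show these differences to be unlike. In GBM the treated libraries differed from the controls by 1.65 (SE 0.87, unadjusted p = 0.0715, adjusted p = 0.260, limma), which was 2.35 (unadjusted p = 0.00950, limma) without the IgG2a library tumor_369_a, 0.52 (unadjusted p = 0.378, limma) without tumor_79_a and 1.07 (unadjusted p = 0.0316, limma) without tumor_369_a and tumor_79_a.

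Serpinb9, the inhibitor of granzyme B, was low in all groups and under the filter of the genome-wide test. It was 0, 0.18, 3.94, 4.73 and 6.42 TPM in GBM after IgG2a, and 4.55 to 20.0 TPM with a median of 7.76 TPM after αPD1 + αGITR. The treated libraries were higher in log2 mean by 1.50 (exact permutation p = 0.0177), and 4 of 7 lay above all controls. Without the IgG2a libraries tumor_369_a and tumor_79_a, which held its lowest values, the difference was 0.52 (exact permutation p = 0.275; 7 libraries against 3 allow p no smaller than 0.00833). In spleen its median was 0.12 TPM after IgG2a and 3.85 TPM after αPD1 + αGITR (exact permutation p = 0.207). Treated GBM and treated spleen differed in Serpinb9 by 1.01 on the log2 scale (exact permutation p = 0.0580), whereas Gzmb differed there by 6.67.

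Among the 9 genes, Gzmb and Nkg7 had a Pearson r of 0.83 in log2(TPM + 1) over the 27 libraries, but of 0.10 for deviations from group means. Nkg7 and Serpinb9 kept theirs, with 0.61 in both forms. Gzmb and Prf1 had an r of 0.43 by level and -0.19 by deviation. Such values describe libraries that share tissue, scaling and T cell content.

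By level across the same libraries the 5 genes of 8687 most like Gzmb were Plac8 (r = 0.93), followed by Icos, Ifngr1, Arl5a and Ly6a (r = 0.91 to 0.92). Icos, a co-stimulatory receptor, was 151 to 544 TPM in GBM and 0.35 to 83.4 TPM in spleen, and it was also among the 5 most like Gzmb by deviations from group means (r = 0.71), behind Gnpat, Hp1bp3 and Rps12 (r = 0.72 to 0.76). Nearest to Nkg7 were Cish, a feedback inhibitor of cytokine signaling (r = 0.90), Il18r1, Plac8, Tnfrsf9 and Pvrig. By deviations the gene most like Nkg7 was Gpr108 (r = 0.83) and that most like Prf1 was Dmap1 (r = 0.82).

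The wider machinery of granules was followed in lists of known genes. Of 18 genes for granule maturation and exocytosis, 14 were tested between treated GBM and treated spleen, and 4 were higher in GBM at an adjusted p under 0.05, against 15.8% of all genes tested. These were Sytl1 (66.3 ± 43.3 TPM, SD, n = 7, against 10.2 ± 14.4 TPM, SD, n = 8) and Stx11 (53.8 ± 12.5 against 10.5 ± 12.1 TPM), each with every GBM library above every spleen, as in 2.96% of genes tested. The others were Ap3b1 and Lamp2, with log2 differences of 1.88 and 1.78. Lamp1, Lamp2, Cd63 and Stxbp3 passed the filter only through their GBM level, so the number that passed it is no support for a difference. After IgG2a neither Sytl1 nor Stx11 passed between tissues, with Sytl1 at 31.6 TPM in GBM, beside a splenic 31.0 TPM (log2 difference -0.31, adjusted p = 0.916, limma) and Stx11 at 37.8 and 25.3 TPM (0.18, adjusted p = 0.952, limma). Sytl1 encodes a tether of Rab27 vesicles, and Stx11 a syntaxin that lytic granules need for fusion. Ctsc, which activates pro-granzymes, and Unc13d, a priming factor of granules, did not pass. After IgG2a 1 of 13 genes tested passed, against 0.488% of all genes, namely Lamp2, whose GBM level was 51.0 ± 55.2 TPM (SD, n = 5) beside a splenic one of 2.08 ± 2.06 TPM (SD, n = 7) (adjusted p = 0.0466, limma), and which again passed the filter only through GBM.

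**Figure D4:**
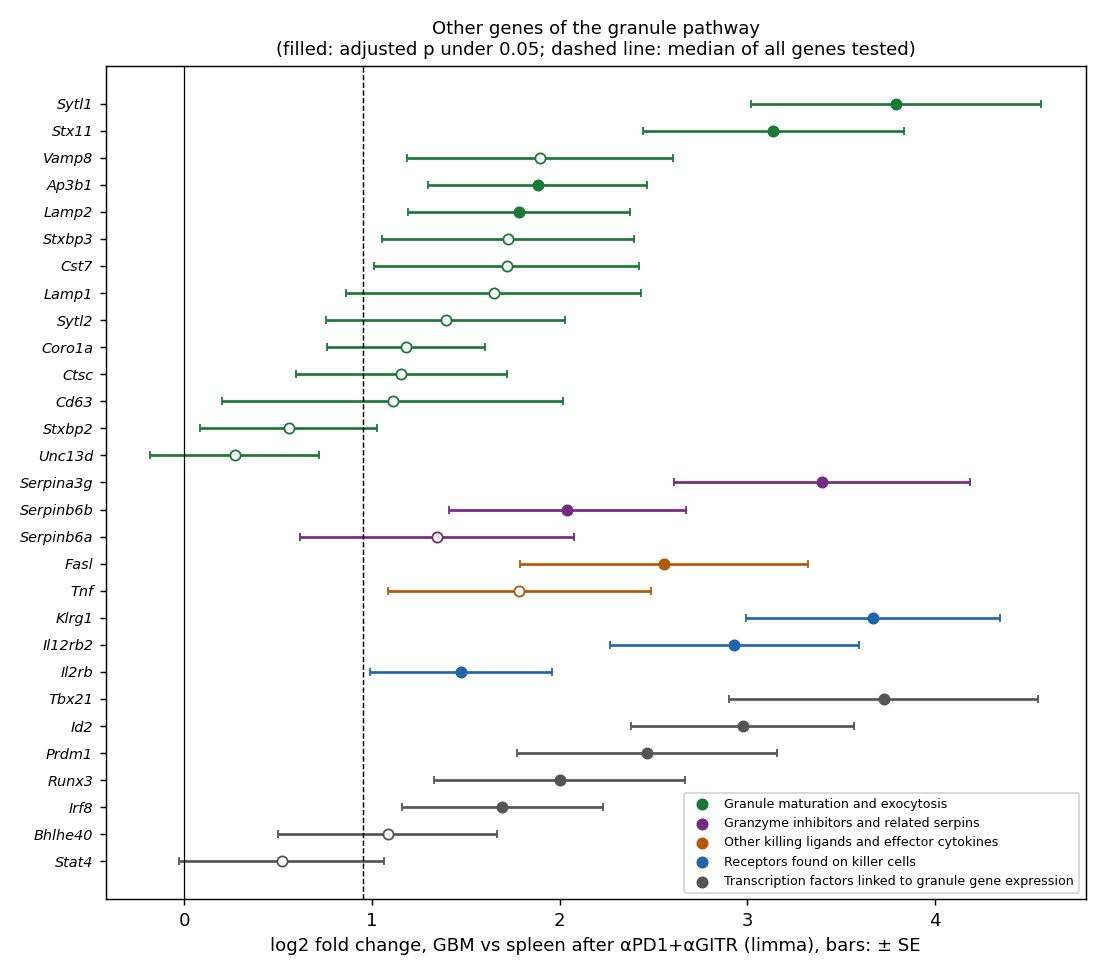
Log2 differences with SE between treated GBM and treated splenic Treg cells for genes of 5 lists around cytotoxic granules that passed the filter. Filled points have an adjusted p under 0.05, and the dashed line is the median over all genes tested, 0.95. Sytl1 and Tbx21 lie farthest to the right at 3.79 and 3.73.

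Between treatments in GBM, 3 of 15 machinery genes tested were higher at an unadjusted p under 0.05 and 2-fold, against 16.8% of all genes, and none passed after adjustment. Coro1a, an actin regulator expressed throughout T cells, averaged 1503 ± 244 TPM (SD, n = 7) in treated libraries, compared with 669 ± 226 TPM (SD, n = 5) in controls, with all treated libraries above all controls, as in 1.77% of genes tested (log2 difference 1.23, adjusted p = 0.0977, limma). The others were Sytl1 (1.81) and Sytl2 (1.44), and Sytl2 passed the filter only through its treated level (22.8 TPM, against 9.80 TPM in controls). In spleen 2 of 10 machinery genes tested, Sytl1 and Stx11, were lower after treatment by the same threshold, against 1.04% of all genes, with log2 differences of -2.29 and -1.72, and neither passed adjustment (adjusted p = 0.9997 for both, limma).

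Of 5 other serpins, 3 were tested, and after αPD1 + αGITR Serpina3g (GBM 137 ± 51.5 TPM, SD, n = 7; spleen 27.4 ± 31.2 TPM, SD, n = 8) and Serpinb6b (12.9 and 2.72 TPM) were higher in GBM, where 15.8% of all genes were. Serpinb6b passed the filter only through its GBM level. After IgG2a none of the 3 serpins tested passed between tissues, against 0.488% of all genes. The log2 differences there were 2.80 for Serpina3g and 1.94 for Serpinb6b (adjusted p = 0.146 and 0.511, limma). Of 6 killing ligands and effector cytokines, only Fasl and Tnf were tested, and Fasl, the ligand of the death receptor Fas, was higher in treated GBM than treated spleen by 2.56 (adjusted p = 0.0295, limma), again beside 15.8% of all genes. Fasl passed the filter only through its GBM level (13.0 TPM, against 2.25 TPM in spleen), while Lta (7.55 and 8.66 TPM) and Crtam (0.60 and 2.64 TPM), lower in GBM by their means, were not tested. Tnf was 25.3 ± 18.0 TPM (SD, n = 7) in treated and 6.57 ± 7.14 TPM (SD, n = 5) in IgG2a GBM (log2 difference 2.31, unadjusted p = 0.00799, adjusted p = 0.133, limma), and it passed the filter there only through its treated level. By the unadjusted threshold 1 of the 2 tested there was higher, against 16.8% of all genes.

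Of 10 receptors found on killer cells 3 were tested between treated GBM and treated spleen, where 15.8% of all genes were called higher in GBM, and the log2 differences, each at an adjusted p under 0.05, were 3.67 for Klrg1, 2.93 for Il12rb2 and 1.47 for Il2rb. Klrg1 and Il12rb2 passed the filter only through their GBM level, and Cd226 (2.77 TPM in GBM and 6.09 TPM in spleen) and Klrd1 (0.40 and 2.18 TPM) were too low to be tested. Klrg1, a marker of terminally differentiated lymphocytes and effector Treg cells, was also higher in treated than in IgG2a GBM before adjustment, at 81.1 ± 36.8 TPM (SD, n = 7) and 24.2 ± 15.1 TPM (SD, n = 5), with 6 of 7 above all controls (adjusted p = 0.104, limma). By the unadjusted threshold 1 of 3 receptors tested was higher there, against 16.8% of all genes. Of 11 transcription factors linked to granule genes, 7 were tested between treated tissues and 5 were higher in GBM, against 15.8% of all genes: Tbx21 by 3.73, Id2 by 2.98, Prdm1 by 2.47, Runx3 by 2.00 and Irf8 by 1.69. Prdm1 passed the filter only through its GBM level (44.2 TPM, against 8.10 TPM in spleen), and Eomes was not tested (0.72 TPM in GBM, against a splenic mean of 3.05 TPM). Tbx21, which encodes T-bet, was 120 ± 37.2 TPM (SD, n = 7) in treated GBM and 21.0 ± 21.8 TPM (SD, n = 8) in treated spleen, with all GBM libraries above all spleens, as in 2.96% of genes tested. After IgG2a none of 8 factors and 3 receptors tested passed between tissues, where 0.488% of all genes were higher in GBM. The log2 differences there were 3.12 for Id2, 2.87 for Tbx21, 1.34 for Prdm1, 0.66 for Irf8 and 0.28 for Runx3. For Il12rb2, Klrg1 and Il2rb they were 3.08, 2.84 and 0.25. Between treatments in GBM 2 of 8 of these factors tested, Prdm1 (2.02) and Irf8 (1.77), passed the unadjusted threshold, against 16.8% of all genes, and neither passed adjustment.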

How the data were processed

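Bulk RNA-seq of sorted Treg cells was analyzed. By the study's methods and processing notes the authors converted reads with bcl2fastq, aligned them to mm10 with TopHat2 and calculated TPM with RSEM; versions and the annotation are not given in the sources used here. The deposited table holds TPM plus 1, recorded as another unit, and its depth is unknown, so the spread between libraries alone gives the precision. The added 1 was taken off each value. There was 1 unnamed column of values, which was not used, and 27 libraries were grouped by their labels. log2(TPM + 1), with a pseudocount of 1, was fitted with limma 3.58.1 in R 4.3.3 (lmFit, eBayes with trend), where a gene averaged over 10 TPM in 1 or more of the groups compared, with Benjamini-Hochberg adjustment over all genes tested and two-sided p-values. Only the groups compared entered a fit, except the interaction, fitted over 4 groups. Calls between tissues used an adjusted p under 0.05, and those between treatments an unadjusted p under 0.05 and a 2-fold change. The fit was tested on simulated data. The members and lists were chosen with earlier results of these data known. Genes named were the 9 members, from each list those called in a comparison (at most 4 of a list and direction by lowest p, plus Runx3) and those near 0, and the 5 most like Gzmb, Prf1 and Nkg7, not all of which are reported here; Runx3, Ctsc and Unc13d were added after their values were seen. Positions came from GENCODE vM21 (GRCm38) by symbol and upstream sequences from RefSeq (GRCm38.p6), read with Python 3.11.15. Alternatives were other pseudocounts, filters and scalings, library weights, 1 fit of all groups, a block for the label number and the omission of each library; scaling to T cell genes and leaving out 2 libraries together were added after seeing the data.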

Additional observations from a re-analysis of the deposited data

Results flagged for a closer look

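In 8 of 36 combinations of gene and group the highest or lowest library stood apart from the rest of its group by Dixon's ratio, the gap to the nearest library divided by the range of log2(TPM + 1). Chance alone marks about 1 in 20 such groups, and values at or near 0 in most libraries make the ratio large. Several concerned transcripts at or near 0 in most libraries of the group: the treated library spleen_74_a in Gzma (7.27 TPM, ratio 0.539), the treated library spleen_80_a in Gzmc (0.20 TPM, the others at 0, ratio 1), the IgG2a library spleen_79_a in Gzmk (0.59 TPM, the others at 0, ratio 1) and the treated GBM library tumor_73_a in Gzma (11.9 TPM, ratio 0.648). The treated GBM library tumor_73_b stood apart as the highest in both Gzmb (949 TPM, ratio 0.584) and its cluster neighbor Gzmc (6.98 TPM, ratio 0.818). The lowest of their groups were the treated GBM library tumor_72_a in Prf1 (0.30 TPM, ratio 0.634) and the IgG2a GBM library tumor_369_a in Nkg7 (14.6 TPM, ratio 0.809); tumor_369_a had the highest Ctsw and Srgn of its group.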

How the results depend on the processing

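Of 599 values recomputed under the alternatives, 538 kept direction and side of the threshold, 25 lost a call, 12 gained one and 24 changed sign. After IgG2a the number of granule genes called between tissues went from 2 to 1 with a pseudocount of 0.1, no filter, the replicate block or T cell gene scaling, to 3 with library weights (Srgn), to 0 with a mean above 10 TPM in every group, which left 1 gene tested, and to 1 to 2 when single libraries were left out. In the treated arm it went from 5 to 3 without a filter and with T cell gene scaling, where Srgn and Prf1 lost their calls, and to 2 with the filter in every group, which tested 2. Between treatments in GBM it went from 0 to 1 without a filter (Serpinb9), with library weights (Ctsw), without both tumor_369_a and tumor_79_a (Ctsw), and to 0 to 1 over single omissions, where Ctsw, Nkg7 or Prf1 passed; for the interaction it went to 1 with library weights and 0 to 1 over single omissions (Ctsw). The block left Nkg7 uncalled after IgG2a at a like difference (4.60, adjusted p = 0.248, limma). T cell gene scaling takes the same amount off every log2 difference of a comparison, so signs that change with it are not particular to a gene. Its effect on the SE, and so on the calls, differs between genes. It moved the median of all genes to -0.81 (tissues, IgG2a), -0.51 (tissues, treated) and 0.19 (treatment, GBM). The TMM-type factors moved the median of all genes from 0.48 to 0.20 (tissues, IgG2a), from 0.95 to 0.22 (tissues, treated) and from 0.62 to 0.05 (treatment, GBM). Signs changed for Prf1 between tissues after IgG2a (-0.13 with the replicate block, -0.25 with T cell gene scaling), for Gzmb (-0.30) and Srgn (-0.23) between treatments in GBM with TMM-type factors and for Gzmb with T cell gene scaling (-0.034), and in the interaction for Nkg7 with a pseudocount of 10 (0.51), for Srgn (0.49) and Prf1 (-0.067) with library weights, for Srgn without both libraries (0.16) and over single omissions for Srgn (-0.45 to 0.22) and Nkg7 (-0.83 to 0.29). The cause was not tested. Of 9 label numbers in both tissues, deviations from group means correlated above 0.1 between the tissues for 1 (r from -0.15 to 0.16). None correlated best with its own number. Low correlations between different tissues cannot decide whether a number marks a shared mouse. Whether libraries of the same tissue with the same number share a mouse was not tested. The block moved all genes called between tissues from 42 to 2 after IgG2a and from 1310 to 495 after treatment. The unknown depth leaves values at 0 without a limit.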
